A study of Mus musculus with 10 samples.

Results

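The genes described here form a chosen set of 10 mouse antioxidant genes of the glutathione and thioredoxin systems that are linked to the transcription factor NRF2: *Nfe2l2*, *Gclc*, *Gclm*, *Gsr*, *Txn1*, *Txnrd1*, *Srxn1*, *Hmox1*, *Prdx1* and *Nqo1*. They were listed by name from what is known of these systems, but with earlier results of these data known. Counts of calls among them are therefore a description. Of the 10 genes, 9 had at least 1 probe set of their own among the 18193 named genes on the array, with 19 such probe sets in all. *Prdx1* had none of its own and was not tested.

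RNA of sorted mouse T cells was hybridised to 10 Affymetrix whole-genome mouse arrays, 2 for each of 5 groups. Naïve CD4+ and naïve CD8+ T cells, CD62L+ CD44-, came from the spleen of wild-type C57BL/6 mice and were not cultured. CD4+ TEM and CD8+ TEM cells, CD62L- CD44+ effector-memory cells, and CD4+ memory cells, whose titles carry the letters CM, were taken on day 25 from cultures of such naïve cells. A low dose of IL-2 and γ-irradiated LMP1/2A+ B lymphoma cells were present in these cultures, with fresh irradiated cells added every week. The stimulator lines derive from mice in which Cγ1-Cre, active in germinal center B cells, switches on the Epstein-Barr virus proteins LMP1 and LMP2A from the Rosa26 locus, and the lymphomas grew in Rag2-deficient recipients. Each cultured group therefore differed from its naïve group in culture, antigen, IL-2 and proliferation together, and these cannot be told apart.

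No source used here says whether the 2 arrays of a group came from separate animals or cultures, so p-values here reflect the scatter of these arrays alone, which may be technical. The labels also carry a Foxo1 status that differs within pairs and describe germinal center B cells, so titles and source names were used to assign the groups. *Cd4* lay between 11.50 and 11.89 on the CD4+ arrays and *Cd8b1* between 10.98 and 11.54 on the CD8+ arrays, as those names say. *Cd8a* was 7.67 and 8.17 in CD4+ TEM cells against 4.99 and 5.16 in naïve CD4+ cells. *Cd8b1* did not rise there, at 5.25 and 4.94 against 5.63 and 5.30. In CD8+ TEM cells *Cd4* was 6.51 and 6.89, against 4.30 and 4.10 in naïve CD8+ cells. The number of probe sets that differed at least 2-fold between the arrays of a pair, of 45037, ran from 569 in CD8+ TEM cells to 2397 in naïve CD8+ and 3758 in CD4+ memory cells.

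NRF2, the product of *Nfe2l2*, is held in the cytosol by KEAP1 and degraded until oxidants or electrophiles modify KEAP1, after which NRF2 enters the nucleus and binds antioxidant response elements together with small MAF proteins. Its amount is set largely at the protein level, so that its target genes can change without a change in its own RNA. The targets supply glutathione and thioredoxin, the electron carriers that T cells use to keep protein thiols reduced while they grow and divide.

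The promoters show where the letters of such an element stand in these genes. RefSeq promoters on GRCm38.p6, each from 250 bases before to 50 bases after a transcript start, were at hand for 7 of the 10 genes, 9 promoters in all, and both strands were searched for TGACNNNGC, the core of the antioxidant response element, and for TGACTCA, the AP-1 element. A core stood in promoters of 5 of the 7 genes, namely *Nfe2l2*, *Gclm*, *Txnrd1*, *Srxn1* and *Prdx1*, against 14.0% of all 27025 genes in the table. By promoter these were 5 of 9, against 12.4% of all 32851 promoters. An AP-1 element stood in *Srxn1* and *Prdx1*, against 5.95% of all genes and 5.20% of all promoters. *Srxn1* held 2 AP-1 elements, from -102 to -96 and from -45 to -39, and a core downstream of its start, from +29 to +37. The core of *Prdx1* overlapped one of its 2 AP-1 elements. Neither string of letters was in the window of *Txn1* or *Nqo1*. A match describes letters and is no evidence of binding. The windows below, each read 5′ to 3′ along the strand of its gene with the matching letters in capitals, are shown for the regulator itself, for the other genes with probe sets of their own and an upstream core, and for *Srxn1*, the gene with the largest change in TEM cells. They lie at chr2:75704880-75704913 (minus strand) for *Nfe2l2*, at chr3:122245408-122245446 for *Gclm* and chr10:82859099-82859137 for the second of 3 *Txnrd1* promoters, and at chr2:152105407-152105443 and chr2:152105464-152105500 for the distal and proximal AP-1 elements of *Srxn1*, these 4 on the plus strand.
Nfe2l2 core: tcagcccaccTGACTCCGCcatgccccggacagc
Gclm core: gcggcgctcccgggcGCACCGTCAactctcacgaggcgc
Txnrd1 core: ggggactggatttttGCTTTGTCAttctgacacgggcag
Srxn1 distal AP-1: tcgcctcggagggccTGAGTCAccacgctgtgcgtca
Srxn1 proximal AP-1: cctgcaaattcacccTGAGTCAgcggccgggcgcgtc

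In both TEM groups *Srxn1*, *Txn1* and *Hmox1* were higher than in the naïve cells, and *Nfe2l2* and *Gclc* were lower. *Nqo1* was higher in CD4+ TEM cells, and *Gsr* and *Gclm* were higher in CD8+ TEM cells. All values are log2 RMA values as deposited, so a difference of 1 is 2-fold. Changes are given as the log2 difference of group means ± SE from limma, a linear model with moderated variance over all 10 arrays, and a gene was called where its Benjamini-Hochberg adjusted p over all 18193 genes was under 0.05. In CD4+ TEM cells against naïve CD4+ cells, 7 of the 9 genes were called, 4 higher and 3 lower, against 26.5% of all genes in either direction, 16.4% higher and 10.1% lower. In CD8+ TEM cells against naïve CD8+ cells, 7 of 9 were called, 5 higher and 2 lower, against 38.1% of all genes, 20.9% higher and 17.2% lower. In CD4+ memory against naïve CD4+ cells, 5 of 9 were called, 3 higher and 2 lower, against 23.2% of all genes, 13.5% higher and 9.78% lower. In a fit of the 10120 genes with a group mean of at least 6, 47.8%, 63.6% and 42.4% were called in these comparisons. All 9 genes reach such a mean, so these shares are the closer comparison. The median change of the 9 genes was 0.35, 0.87 and 0.23 in these comparisons, and that of all genes was 0.02, 0.06 and 0.08.

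**Figure D1:**
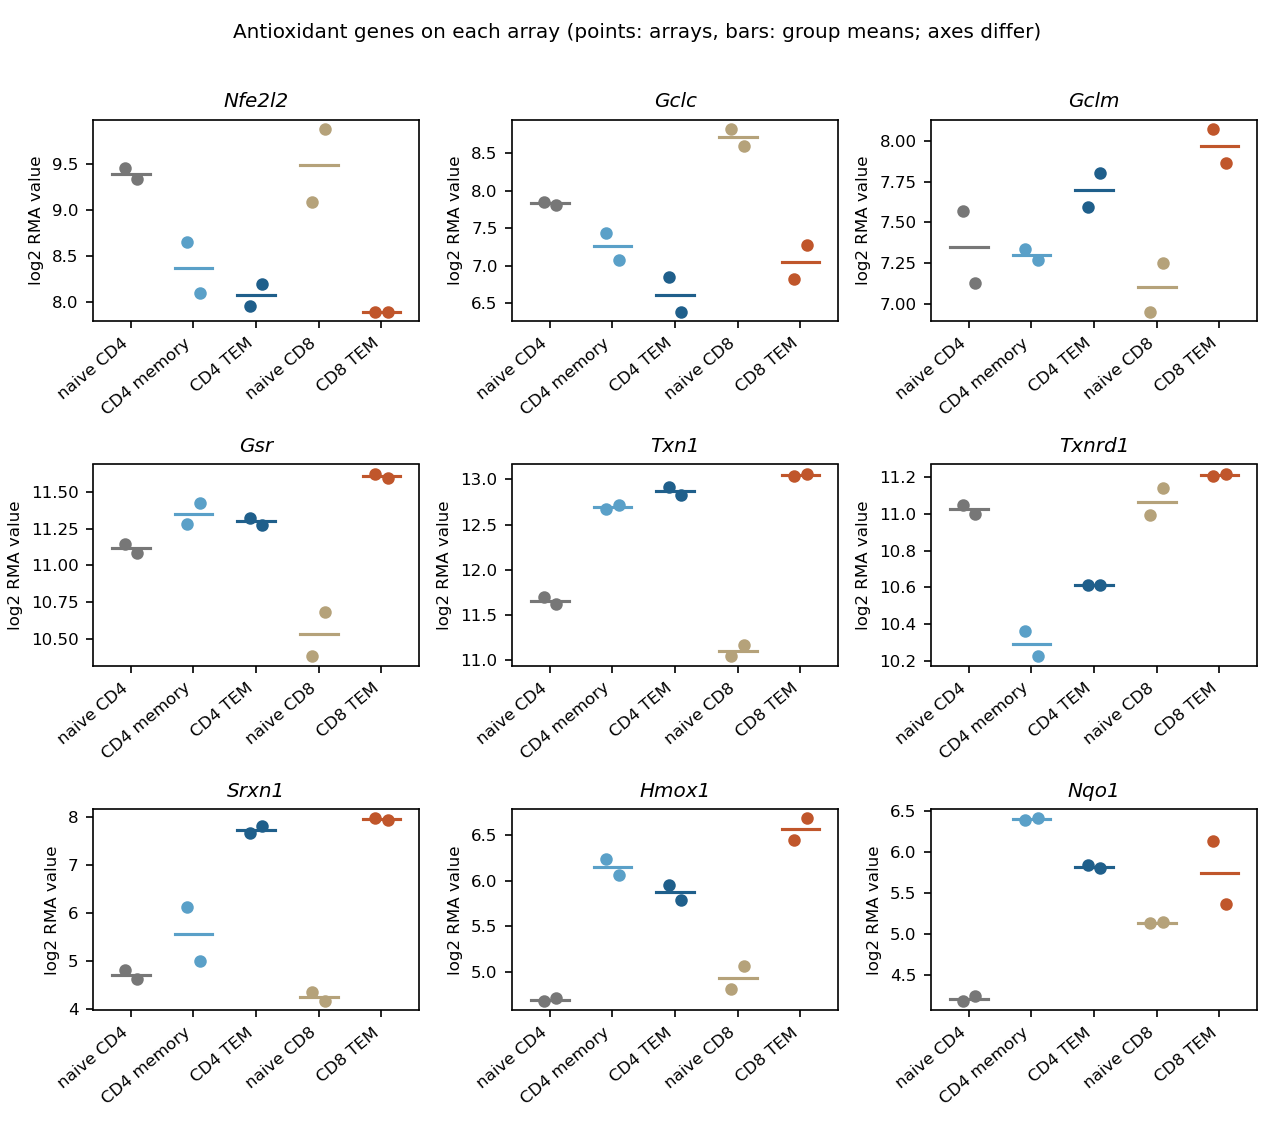
Log2 RMA value of 9 antioxidant genes (vertical axes, which differ between panels) in the 5 groups, with 1 point for each array and a bar at the mean of the 2 arrays. *Srxn1* lies between 7.67 and 7.98 on the 4 TEM arrays and between 4.17 and 4.81 on the 4 naïve arrays, whereas *Nfe2l2* and *Gclc* lie highest on the naïve arrays.

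*Nfe2l2*, which encodes NRF2 itself, was 9.46 and 9.33 on the naïve CD4+ arrays, 7.95 and 8.20 in CD4+ TEM cells and 8.65 and 8.10 in CD4+ memory cells. It was 9.09 and 9.88 in naïve CD8+ cells and 7.90 on both CD8+ TEM arrays. Each cultured array lay below every naïve array, and the naïve CD8+ pair was the widest. The change was -1.32 ± 0.28 in CD4+ TEM cells (adjusted p = 0.00892), a 2.50-fold lower level. It was -1.59 ± 0.28 in CD8+ TEM cells (adjusted p = 0.00221), 3.01-fold lower. *Nfe2l2* was also lower in CD4+ memory cells, by -1.02 ± 0.28 (adjusted p = 0.0314). Leaving out naïve CD4+ replicate 1 ended the CD4+ TEM call (adjusted p = 0.0567), as did leaving out CD4+ TEM replicate 1 (adjusted p = 0.0592). The memory call was lost under 6 of 19 alternatives, with adjusted p of up to 0.143 and a change as small as -0.75 without memory replicate 2. The CD8+ call remained under all 19, and its value was -2.47 with both probe sets averaged. The 2 CD4+ groups of cultured cells overlapped, and naïve CD4+ and naïve CD8+ cells overlapped.

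*Gclc* encodes the catalytic subunit of glutamate-cysteine ligase, the enzyme that catalyses the rate-limiting step of glutathione synthesis, and *Gclm* its modifier subunit. The subunits moved apart in CD8+ TEM cells. *Gclc* was 7.86 and 7.82 in naïve CD4+ cells, 6.84 and 6.39 in CD4+ TEM cells and 7.44 and 7.08 in CD4+ memory cells. In naïve CD8+ cells it was 8.83 and 8.60, the highest of the 5 groups, and in CD8+ TEM cells 6.83 and 7.27. The TEM arrays lay below both naïve pairs. The change was -1.22 ± 0.22 in CD4+ TEM cells (adjusted p = 0.00476) and -1.66 ± 0.22 in CD8+ TEM cells (adjusted p = 0.000564), and both calls remained under every alternative. The value in CD4+ memory cells, -0.58 ± 0.22 (adjusted p = 0.109), did not pass.

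*Gclm* was 7.57 and 7.13 in naïve CD4+ cells, 7.59 and 7.80 in CD4+ TEM cells, and 7.34 and 7.27 in CD4+ memory cells. It was 6.95 and 7.25 in naïve CD8+ cells and 8.08 and 7.86 in CD8+ TEM cells. The CD8+ TEM arrays stood above all others, whereas the 3 CD4+ groups lay close together. *Gclm* rose by 0.87 ± 0.19 in CD8+ TEM cells (adjusted p = 0.00779), 1.83-fold. That call was lost without naïve CD8+ replicate 1 (adjusted p = 0.0510) or CD8+ TEM replicate 1 (adjusted p = 0.0603). With both probe sets averaged the value was 1.39. The change in CD4+ TEM cells was 0.35 ± 0.19 (adjusted p = 0.247), with a 95% interval from -0.10 to 0.80.

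*Gsr* encodes glutathione reductase, which returns oxidised glutathione to its reduced form at the cost of NADPH. It was 11.14 and 11.09 in naïve CD4+, 11.33 and 11.27 in CD4+ TEM and 11.28 and 11.42 in CD4+ memory cells. In naïve CD8+ cells it was 10.38 and 10.68, the lowest pair, and in CD8+ TEM cells 11.63 and 11.59, the highest. *Gsr* therefore rose by 1.08 ± 0.15 in CD8+ TEM cells (adjusted p = 0.000547), 2.11-fold, under every alternative that kept it. The CD4+ TEM value was 0.18 ± 0.15 (adjusted p = 0.432), with a 95% interval from -0.15 to 0.52.

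*Txn1*, cytosolic thioredoxin, was 11.70 and 11.62 in naïve CD4+ cells, 12.92 and 12.83 in CD4+ TEM cells and 12.67 and 12.72 in CD4+ memory cells. It was 11.04 and 11.17 in naïve CD8+ cells and 13.03 and 13.06 in CD8+ TEM cells. No group overlapped another, in the ascending order naïve CD8+, naïve CD4+, CD4+ memory, CD4+ TEM and CD8+ TEM, although CD4+ TEM cells against memory cells (adjusted p = 0.480) and against CD8+ TEM cells (adjusted p = 0.520) did not pass the test. *Txn1* rose by 1.22 ± 0.13 in CD4+ TEM cells (adjusted p = 0.000220) and by 1.94 ± 0.13 in CD8+ TEM cells (adjusted p = 1.16e-05), which is 2.32-fold and 3.85-fold. It rose by 1.04 ± 0.13 in CD4+ memory cells (adjusted p = 0.000673). The 3 calls remained under every alternative. When the dim second probe set was averaged in, the values fell to 0.67 and 1.24 in CD4+ and CD8+ TEM cells.

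*Txnrd1*, thioredoxin reductase 1, passes electrons from NADPH to thioredoxin. It was 11.05 and 11.00 in naïve CD4+ cells, 10.61 on both CD4+ TEM arrays and 10.36 and 10.22 in CD4+ memory cells. It was 10.99 and 11.14 in naïve CD8+ cells and 11.21 and 11.22 in CD8+ TEM cells. The cultured CD4+ arrays thus lay below the naïve ones and the cultured CD8+ arrays just above theirs. *Txnrd1* fell by 0.73 in CD4+ memory cells (SE 0.13, adjusted p = 0.00454), a call lost when its probe sets were averaged or filtered on variation. In CD4+ TEM cells it fell by 0.41 (SE 0.13, adjusted p = 0.0465), close to the threshold, and the call was lost under 11 of 18 alternatives. With the variation filter, which keeps another probe set of the gene, that value was 0.01. The CD8+ TEM value was 0.15 ± 0.13 (adjusted p = 0.437).

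*Srxn1*, sulfiredoxin, reduces overoxidised peroxiredoxins and showed the largest changes of the 9 genes in both TEM comparisons. It was 4.81 and 4.64 in naïve CD4+ cells and 7.67 and 7.82 in CD4+ TEM cells. The CD4+ memory arrays were at 6.13 and 5.0, a wide pair between these groups. It was 4.36 and 4.17 in naïve CD8+ cells and 7.98 and 7.95 in CD8+ TEM cells. *Srxn1* rose by 3.01 ± 0.32 in CD4+ TEM cells (adjusted p = 0.000243), 8.08-fold, and by 3.69 ± 0.32 in CD8+ TEM cells (adjusted p = 4.88e-05), 12.9-fold. Both calls remained under every alternative, with values from 2.09 to 3.10 and from 2.43 to 3.79, the lowest with probe sets marked for several transcripts left out. The naïve values lay close to or below the median of all probe sets on an array, 4.65 to 4.75, where a signal may be background, so these folds are not exact sizes. In CD4+ memory cells the value was 0.84 ± 0.32 (adjusted p = 0.0975), and it passed without memory replicate 2 (1.40, adjusted p = 0.00143) or with all its probe sets averaged (0.61). Without memory replicate 1 it was 0.27 (adjusted p = 0.323). Its promoter windows with the AP-1 letters are printed above.

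Between CD4+ TEM and CD4+ memory cells *Srxn1* was the 1 gene called of the 9, or 11.1%, where 5.52% of all genes were called. Of genes with a group mean of at least 6, 10.9% were called. A single call says little about the set. The arrays of *Gclc*, *Gclm*, *Txn1*, *Txnrd1*, *Hmox1* and *Nqo1* did not overlap between these groups either, but these genes were not called. How many of all genes had no overlap was not counted, so this is no result about the set. *Srxn1* was higher in TEM cells by 2.18 ± 0.32 (adjusted p = 0.00740), 4.52-fold. The value was 1.61 without memory replicate 2 and 2.74 without memory replicate 1, and the call remained in each omission of 1 array. It was lost when the fit held only the 4 arrays compared (adjusted p = 0.123). The next largest values in that comparison were -0.64 ± 0.22 for *Gclc* and -0.58 ± 0.23 for *Nqo1*, neither of which passed.

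*Hmox1* encodes heme oxygenase 1, which breaks heme into biliverdin, iron and carbon monoxide. It was 4.68 and 4.71 in naïve CD4+, 5.96 and 5.79 in CD4+ TEM and 6.24 and 6.07 in CD4+ memory cells. It was 4.81 and 5.07 in naïve CD8+ and 6.45 and 6.69 in CD8+ TEM cells. Every cultured array stood above every naïve array. *Hmox1* rose by 1.18 ± 0.16 in CD4+ TEM cells (adjusted p = 0.000898), by 1.46 ± 0.16 in CD4+ memory cells (adjusted p = 0.000370) and by 1.63 ± 0.16 in CD8+ TEM cells (adjusted p = 9.50e-05). These calls remained under every alternative. *Hmox1* is abundant in macrophages of the splenic red pulp. A list of 5 markers of those cells had a mean log2 level of 3.33 to 3.59 in naïve CD4+, 4.27 to 4.28 in CD4+ TEM, 3.25 to 3.42 in CD4+ memory, 3.22 to 4.75 in naïve CD8+ and 4.03 to 4.14 in CD8+ TEM cells. Of its 5 markers 0 reached a group mean of 6 in CD4+ memory cells. In each TEM group 1 did, *Vcam1*, at 8.20 and 8.78 in CD4+ and 7.73 and 7.80 in CD8+ TEM cells. The general macrophage marker *Adgre1* was 2.90 and 2.43 in naïve CD4+, 5.61 and 6.31 in CD4+ TEM, 7.83 and 5.36 in CD4+ memory, 2.76 and 4.53 in naïve CD8+ and 5.02 and 6.34 in CD8+ TEM cells. Each of its cultured arrays thus stood above each naïve array, as for *Hmox1*. The macrophage genes *Mpeg1* and *Cd68* rose with *Hmox1* in both cultured CD4+ groups, *Mpeg1* by 2.96 and 3.54 and *Cd68* by 2.72 and 1.77 in TEM and memory cells. The list of 10 myeloid markers that holds these genes did not rise as a whole. In each of these groups 3 were called higher and 2 lower, with median changes of -0.13 and -0.03. *Lyz2* was 4.81 and 6.11 in naïve CD4+, 4.50 and 4.54 in CD4+ TEM and 4.42 and 4.18 in CD4+ memory cells. In CD8+ TEM cells *Cd68* rose by 1.0, a call lost without naïve CD8+ replicate 2 or CD8+ TEM replicate 1. The *Mpeg1* call in CD4+ TEM cells was lost without naïve CD4+ replicate 2 or either CD4+ TEM array (adjusted p of up to 0.132), and that in memory cells without naïve CD4+ replicate 2 or memory replicate 1 (adjusted p of up to 0.0809). The part of such cells in the *Hmox1* values was not tested.

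*Nqo1* encodes a quinone reductase that uses NADH or NADPH. It was 4.18 and 4.24 in naïve CD4+, 5.83 and 5.80 in CD4+ TEM and 6.39 and 6.40 in CD4+ memory cells. It was 5.12 and 5.14 in naïve CD8+ cells, and the CD8+ TEM arrays disagreed, at 6.12 and 5.36. *Nqo1* was thus highest in CD4+ memory cells. It rose by 1.60 ± 0.23 in CD4+ TEM cells (adjusted p = 0.00116), 3.04-fold, and by 2.19 ± 0.23 in CD4+ memory cells (adjusted p = 0.000288), 4.55-fold. The CD8+ TEM value was 0.61 ± 0.23 (adjusted p = 0.0670). Without CD8+ TEM replicate 2 it was 0.99 and passed (adjusted p = 0.00403), without CD8+ TEM replicate 1 it was 0.23 (adjusted p = 0.382), and it passed under 3 of the other alternatives.

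*Prdx1* encodes a peroxiredoxin that thioredoxin reduces. Its 5 probe sets are shared with Gm21399 in the annotation, so their values belong to neither gene alone. They lay between 11.55 and 12.53 in naïve CD4+ cells, 11.55 and 12.66 in CD4+ TEM cells and 11.54 and 12.56 in CD4+ memory cells. They lay between 11.11 and 12.10 in naïve CD8+ cells and between 11.50 and 12.86 in CD8+ TEM cells.

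**Figure D2:**
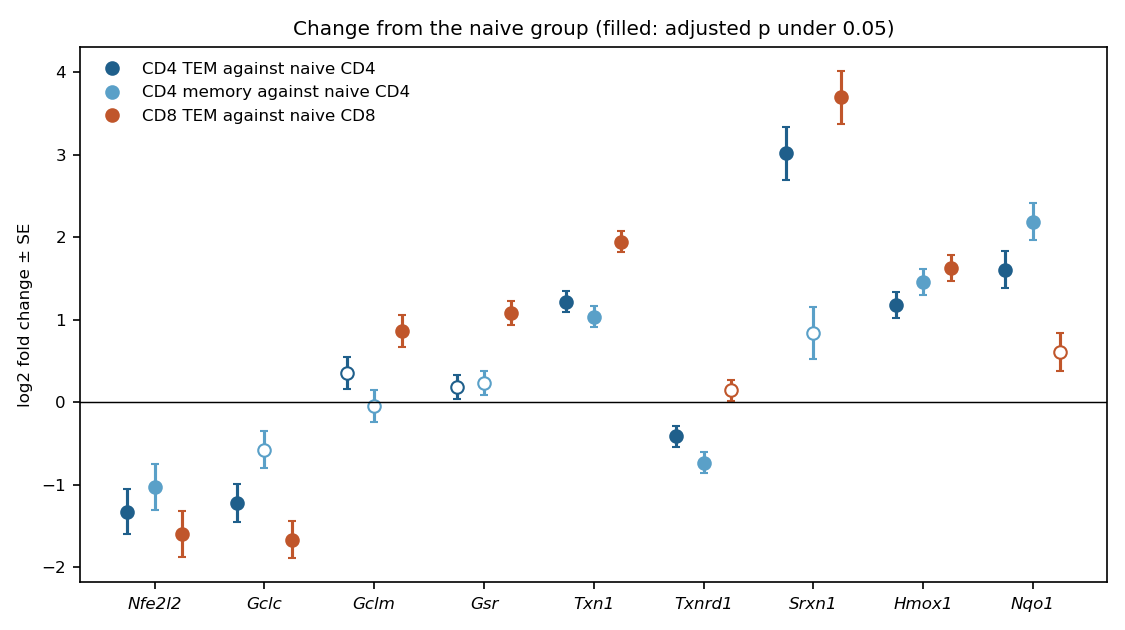
Change of each gene from its naïve group as a log2 fold change with its SE (vertical axis) for CD4+ TEM, CD4+ memory and CD8+ TEM cells, with filled points for an adjusted p under 0.05. *Srxn1* stands at 3.01 and 3.69 in the TEM groups against 0.84 in CD4+ memory cells, and *Nfe2l2* lies below 0 in each of the 3 comparisons.

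The naïve groups differed from each other before culture in 4 of the 9 genes, against 20.5% of all genes. Of genes with a group mean of at least 6, 38.6% were called, so 4 of 9, or 44.4%, lies near that share. Naïve CD8+ cells were higher than naïve CD4+ cells in *Gclc* by 0.88 ± 0.22 (adjusted p = 0.0278) and in *Nqo1* by 0.92 ± 0.23 (adjusted p = 0.0229). They were lower in *Gsr*, by -0.59 ± 0.15 (adjusted p = 0.0242), and in *Txn1*, by -0.55 ± 0.13 (adjusted p = 0.0169). None of the 4 was called without naïve CD4+ replicate 1, without naïve CD4+ replicate 2 or without naïve CD8+ replicate 1, and 2 were called without naïve CD8+ replicate 2. With all probe sets averaged, the values of *Gsr* and *Txn1* were -0.18 and -0.22 and did not pass.

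Between the TEM groups 2 of 9 genes were called, against 5.72% of all genes and 12.2% of genes with a group mean of at least 6. *Txnrd1* was higher in CD8+ than in CD4+ TEM cells by 0.60 ± 0.13 (adjusted p = 0.0346) and *Hmox1* by 0.69 ± 0.16 (adjusted p = 0.0433). Neither call remained when any 1 of the naïve CD4+, CD4+ TEM or CD8+ TEM arrays was left out. For *Srxn1* the difference was 0.22, with a 95% interval from -0.51 to 0.95, and for *Txn1* it was 0.17, with an interval from -0.12 to 0.46. *Gsr* was 0.31 higher in CD8+ TEM cells (adjusted p = 0.287), and with both probe sets averaged the difference was 0.86 and passed (adjusted p = 0.0129).

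The change from naïve to TEM was also compared between the lineages, and 2 of 9 genes were called, against 12.5% of all genes. Of genes with a group mean of at least 6, 25.1% were called, so 2 of 9, or 22.2%, lies near that share. The CD4+ change was smaller than the CD8+ change by 0.90 on the log2 scale for *Gsr* (difference -0.90 ± 0.21, adjusted p = 0.0274). For *Txn1* the difference was -0.73 ± 0.18 (adjusted p = 0.0346). For both genes the naïve CD8+ arrays were the lowest of the series and the CD8+ TEM arrays the highest. The differences for *Nqo1*, 1.0 ± 0.32 (adjusted p = 0.0845), and *Txnrd1*, -0.56 ± 0.18 (adjusted p = 0.0869), did not pass, although *Txnrd1* did with a variance trend (adjusted p = 0.0305), and the median over the 9 genes was -0.52 against -0.04 over all genes. For *Gclm* the difference was -0.52 ± 0.27 (adjusted p = 0.287), but it passed with both probe sets averaged (-1.37, adjusted p = 0.0477) and with a filter on variation (-2.22, adjusted p = 0.0393). Neither *Gsr* nor *Txn1* was called without any 1 of 7 arrays, which were both naïve CD4+, both CD4+ TEM, naïve CD8+ replicate 1 and both CD8+ TEM arrays. Without CD8+ TEM replicate 1, *Nqo1* passed instead (1.38, adjusted p = 0.0161).

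Tested one by one, 9 of the 19 probe sets were called in CD4+ TEM cells, 6 higher and 3 lower, against 23.5% of all 45037 probe sets. In CD8+ TEM cells 13 of 19 were called, 9 higher and 4 lower, against 31.9%. For *Srxn1* the probe sets 1451680_at and 1419942_at rose with the one used for the gene, by 2.09 ± 0.27 and 3.42 ± 0.25 in CD4+ TEM cells. They rose by 2.43 ± 0.27 and 4.45 ± 0.25 in CD8+ TEM cells, while 1425351_at stayed between 2.79 and 3.45 on all 10 arrays. The second *Gclc* probe set, 1424296_at, was lower by -1.35 ± 0.31 in CD4+ TEM and -1.42 ± 0.31 in CD8+ TEM cells, close to the first. The second *Nfe2l2* probe set, 1457117_at, was lower by -3.35 ± 0.75 in CD8+ TEM cells, while its value in CD4+ TEM cells, -1.76 ± 0.75 (adjusted p = 0.143), did not pass.

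The second *Gclm* probe set, 1418627_at, was 7.11 and 6.90 in naïve CD4+ cells and 6.86 and 6.53 in CD4+ TEM cells, a change opposite in sign to the first that did not pass. It was 6.0 and 6.55 in naïve CD8+ cells and 7.99 and 8.37 in CD8+ TEM cells, an increase of 1.91 ± 0.44 (adjusted p over all probe sets = 0.0111). Both *Gclm* probe sets were thus higher in CD8+ TEM cells and neither was called in CD4+ TEM cells. Other probe sets of *Gsr*, *Txn1* and *Txnrd1* were at most 5.64 on any array. *Txnrd1* passed for no probe set in CD4+ TEM cells when p-values were adjusted over all probe sets.

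**Figure D3:**
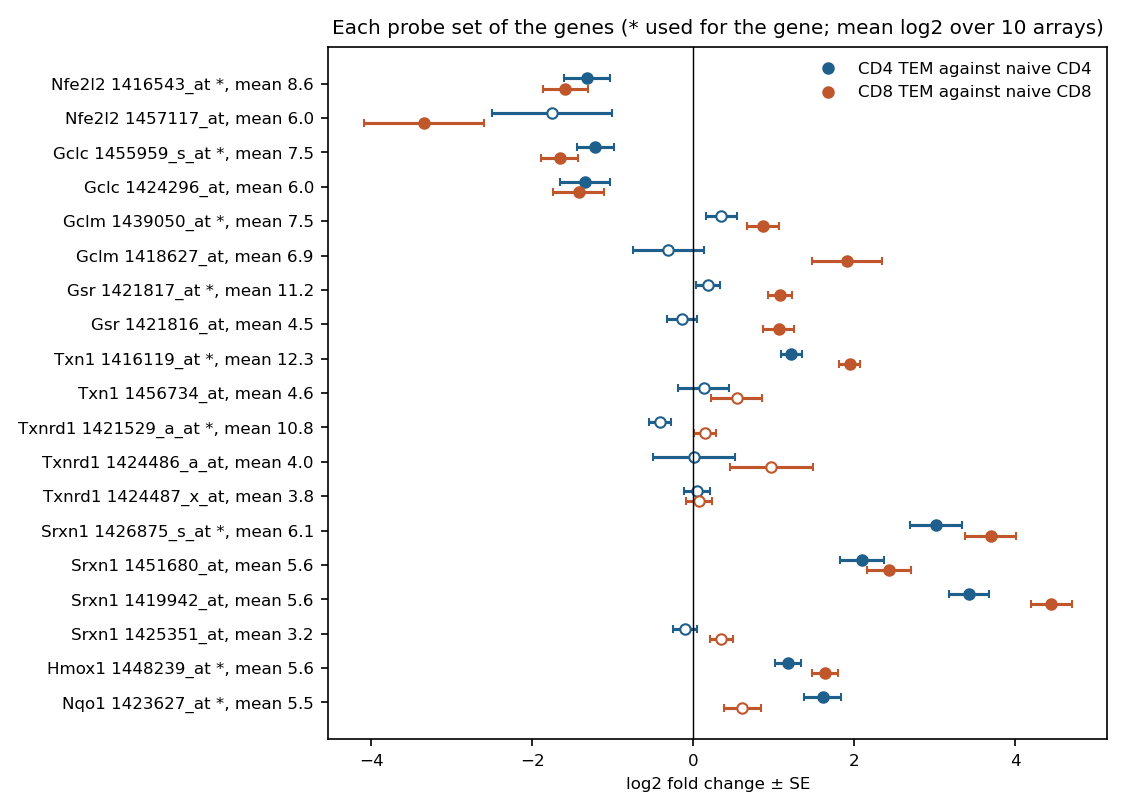
Log2 fold change with its SE (horizontal axis) for each of the 19 probe sets of 9 genes, in CD4+ TEM against naïve CD4+ and CD8+ TEM against naïve CD8+ cells, with filled points for an adjusted p under 0.05 over all probe sets. The 2 *Gclc* probe sets lie between -1.66 and -1.22, and 3 of 4 *Srxn1* probe sets lie between 2.09 and 4.45.

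Genes whose profile over the 10 arrays was most like that of a member, by the root mean square difference of gene-centred log2 values among 8918 genes, were sought for the 7 members whose group means spanned at least 1. *Txn1* was followed most closely by *Acadl* (0.09), *Cd82* (0.10) and *Ldha* (0.10), and *Gsr* by *Psma2* (0.06), *Trim35* (0.07) and *Ndufa9* (0.08). *Srxn1* had more distant neighbours, *Tmem163* (0.29), *Jazf1* (0.33) and *Gpat3* (0.34). *Nfe2l2* was followed by *Il16* (0.14), *Septin1* (0.18) and *Nfatc1* (0.21), and *Gclc* by *Prkd2* (0.15), *Rnpc3* (0.20) and *Txlng* (0.21). *Hmox1* was followed by *Fzr1* (0.13), *Plekho2* (0.16) and *Cope* (0.16), and *Nqo1* by *Gadd45g* (0.23), *G2e3* (0.24) and *2810408I11Rik* (0.24).

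Around the members, 108 other genes of the pathway were listed and 102 were measured. In CD4+ TEM cells 35 were called higher and 15 lower, and in CD8+ TEM cells 48 higher and 14 lower, with medians of 0.25 and 0.48. In CD4+ memory cells 26 were higher and 11 lower. Of the measured pathway genes 34.3% were thus higher and 14.7% lower in CD4+ TEM cells, against 16.4% and 10.1% of all genes. In CD8+ TEM cells the shares were 47.1% and 13.7%, against 20.9% and 17.2%, and in memory cells 25.5% and 10.8%, against 13.5% and 9.78%. In either direction 49.0%, 60.8% and 36.3% of the pathway genes were called in CD4+ TEM, CD8+ TEM and memory cells. Of genes with a group mean of at least 6, 47.8%, 63.6% and 42.4% were called. Some pathway genes, such as *Slc7a11*, do not reach that level. The genes were chosen with earlier results known, so the shares are a description.

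Of 14 regulators that act with or against NRF2, 6 were lower and 0 higher in CD4+ TEM cells, and 6 lower and 2 higher in CD8+ TEM cells, where 10.1% and 17.2% of all genes were lower. In either direction 42.9% and 57.1% were called, against 47.8% and 63.6% of genes with a group mean of at least 6. *Bach1*, which encodes a repressor that competes with NRF2 at its elements, was 10.98 and 10.91 in naïve CD4+ cells and 10.11 and 10.02 in CD4+ TEM cells. It was 11.01 and 10.87 in naïve CD8+ cells and 9.52 and 9.60 in CD8+ TEM cells. It fell by 0.88 (SE 0.13, adjusted p = 0.00139) and by 1.38 (SE 0.13, adjusted p = 7.53e-05). *Bach2*, a related repressor known for holding lymphocytes in a less differentiated state, changed by -1.40 and -3.48. In CD4+ memory cells *Bach1* was 11.06 and 10.99 and *Bach2* was 11.98 and 11.96, changes of 0.09 ± 0.13 and -0.10 ± 0.15 that did not pass. Both were lower in CD4+ TEM than in memory cells (adjusted p = 0.00473 and 0.00269). *Crebbp*, a coactivator, changed by -1.0 and -1.68, and *Mafk*, a small MAF partner, fell by 1.61 in CD8+ TEM cells. The naïve CD8+ arrays of *Mafk* disagreed, at 10.21 and 8.55, against 7.75 and 7.80 in CD8+ TEM cells, so the change was -0.78 without naïve CD8+ replicate 1 and -2.44, no longer called, without replicate 2 (adjusted p = 0.0868). *Keap1* was 0.25 ± 0.17 and 0.31 ± 0.17 from naïve and was not called.

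Of 30 measured glutathione genes, 13 were higher and 2 lower in CD4+ TEM cells, and 15 were higher and 2 lower in CD8+ TEM cells, against 16.4% and 20.9% of all genes higher. The glutathione transferase *Gstt1* rose by 4.49 ± 0.41 and 4.90 ± 0.41, *Gstm5* by 3.94 ± 0.35 and 4.50 ± 0.35, and glutaredoxin, *Glrx*, by 2.72 ± 0.23 and 3.78 ± 0.23 in CD4+ and CD8+ TEM cells. *Gstt1* and *Gstm5* lay below the array medians of 4.65 to 4.75 on every naïve array, so their sizes are measured from a level that may be background. *Gsta4* fell by 3.30 in CD4+ TEM cells, to levels below those medians. *Gpx4*, the lipid hydroperoxide peroxidase, rose by 0.79 ± 0.23 and 1.08 ± 0.23. *Slc7a11*, the cystine carrier of the exchanger that feeds glutathione synthesis and a known NRF2 target, stayed between 2.58 and 3.02 on all 10 arrays. These values too lie below the array medians and may be background, so they cannot show whether the gene responded.

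Of 17 thioredoxin system genes, 5 were higher and 3 lower in CD4+ TEM cells and 9 higher and 3 lower in CD8+ TEM cells, against 16.4% and 20.9% of all genes higher and 10.1% and 17.2% lower. In either direction 47.1% and 70.6% were called, near the 47.8% and 63.6% of genes with a group mean of at least 6. *Prdx4*, the peroxiredoxin of the endoplasmic reticulum, rose by 2.20 ± 0.16 and 4.62 ± 0.16, and the CD4+ change was smaller than the CD8+ change (difference -2.41 ± 0.22, adjusted p = 0.000958). *Prdx2* rose by 1.14 ± 0.24 and 2.41 ± 0.24, and *Nxn*, nucleoredoxin, by 1.69 ± 0.16 and 2.46 ± 0.16. *Txnip*, whose product binds and inhibits thioredoxin, changed by -0.48 and -0.69. *Msrb2*, a methionine sulfoxide reductase, fell by 2.88 in CD4+ TEM cells.

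Of 10 genes for the supply of NADPH, 5 and 7 were higher in CD4+ and CD8+ TEM cells and 0 lower, against the same shares of all genes. Of genes with a group mean of at least 6, 47.8% and 63.6% were called in either direction. *Me1*, cytosolic malic enzyme, was 3.65 and 3.11 in naïve CD4+ cells and 11.00 and 10.72 in CD4+ TEM cells. It was 2.70 and 3.06 in naïve CD8+ cells and 11.72 on both CD8+ TEM arrays. Its naïve values too lay below the array medians, so the differences of 7.48 ± 0.25 and 8.85 ± 0.25 are measured from a level that may be background. It was higher in CD4+ TEM than in CD4+ memory cells by 2.68 ± 0.25 (adjusted p = 0.000810). *Tkt* and *Pgls* of the pentose phosphate pathway rose by 1.24 and 1.02 in CD4+ TEM cells and by 1.36 and 2.12 in CD8+ TEM cells.

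Of the 4 genes against superoxide and peroxide, mitochondrial *Sod2* rose by 0.65 and 1.17, and *Cat*, catalase, was not called in either TEM comparison (-0.53 and 0.03). In the heme and iron list 4 of 11 were higher and 1 lower in CD4+ TEM cells, and 5 higher and 1 lower in CD8+ TEM cells. For this list and the next ones the shares of all genes were again 16.4% higher and 10.1% lower in CD4+ TEM cells, and 20.9% and 17.2% in CD8+ TEM cells. In either direction 47.8% and 63.6% of genes with a group mean of at least 6 were called. *Blvrb*, a biliverdin reductase that acts after heme oxygenase, rose by 1.55 ± 0.31 and 2.18 ± 0.31. Of 11 further NRF2 targets, 4 were higher and 3 lower in CD4+ TEM cells and 5 higher and 2 lower in CD8+ TEM cells. *Slc6a9*, a glycine carrier whose naïve values of 4.25 to 4.84 were close to the array medians, rose by 3.03 and 3.09, whereas *Ephx1*, an epoxide hydrolase, changed by -3.25 and -2.16. The subunits of NADPH oxidase, a source of superoxide, had 3 of 5 higher in each TEM group, among them *Ncf1* by 5.27 ± 0.18 and 1.17 ± 0.18. Some of the CD4+ TEM calls named for these lists were lost when 1 array was left out, which also leaves the test with fewer arrays. *Blvrb* (adjusted p = 0.0516) was lost without naïve CD4+ replicate 1, *Prdx2* (adjusted p = 0.0629) without naïve CD4+ replicate 2, and *Sod2* and *Pgls* without naïve CD4+ replicate 1 or CD4+ TEM replicate 1 (adjusted p of up to 0.130 and 0.105). *Gpx4* and *Txnip* were lost without any 1 of 6 arrays, both naïve CD4+, both CD4+ TEM and both CD8+ TEM (adjusted p of up to 0.149 and 0.118). In CD8+ TEM cells the calls of these 6 genes remained in each omission, where *Gpx4* was 0.70 without naïve CD8+ replicate 1.

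**Figure D4:**
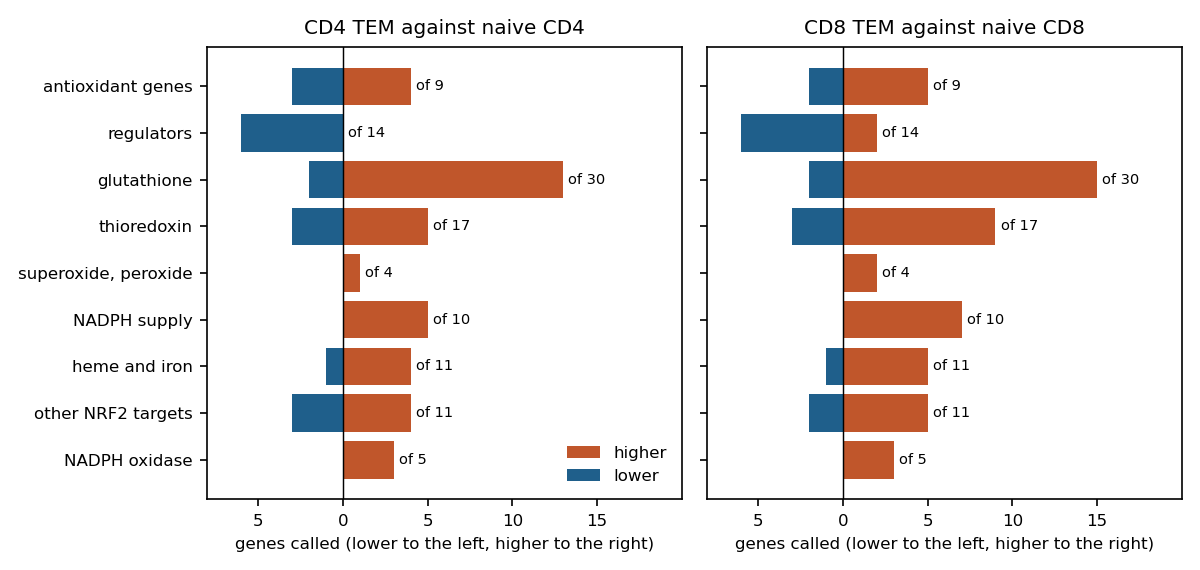
Number of genes called higher (to the right) and lower (to the left) in CD4+ TEM and CD8+ TEM cells against their naïve groups, for the antioxidant genes and for 8 pathway lists, with the number measured beside each bar. Regulators have 6 genes called lower in each panel, and glutathione genes have 13 and 15 called higher.

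Other measurements moved with the same contrast. The 3′ minus 5′ difference of the *Gapdh* control probe sets, a sign of RNA quality and labelling, was 2.42 to 2.75 on the naïve arrays and 0.91 to 1.72 on the cultured arrays. The mean log2 level of 9 cell cycle genes was 7.15 to 7.53 on the naïve arrays and 10.08 to 10.44 on the cultured arrays. The mean of 10 measured B cell markers was 4.49 to 4.59 in naïve CD4+, 6.42 to 6.78 in CD4+ TEM, 7.0 to 7.51 in CD4+ memory, 4.99 to 6.35 in naïve CD8+ and 6.33 to 6.80 in CD8+ TEM cells. Among these markers *Ebf1* was 10.19 to 10.82 on the cultured arrays and *Pax5* at most 4.33 on any array. *Ighm* went the other way, at 11.30 to 12.60 on the naïve arrays and 9.32 to 10.95 on the cultured arrays. Of the 10 markers 4 were called higher and 1 lower in each TEM group, and 6 higher and 0 lower in CD4+ memory cells. The mean of 10 myeloid markers was 4.70 to 5.20 in the groups other than naïve CD8+, where it was 4.98 and 6.29, but its members moved apart. In CD4+ TEM cells 3 of the 10 were called higher and 2 lower, in CD8+ TEM cells 2 and 2, and in CD4+ memory cells 3 and 2. *Adgre1* rose by 3.30 in CD4+ TEM and 3.93 in CD4+ memory cells, the first call being lost without any 1 of the naïve CD4+ or CD4+ TEM arrays (adjusted p of up to 0.122) and the other without either naïve CD4+ array (adjusted p of up to 0.0793). *S100a8* changed by -5.31, -5.06 and -5.03 in CD4+ TEM, CD8+ TEM and memory cells, and *S100a9* by -4.21, -5.95 and -4.39. Of the erythroid markers, 0 of 4 measured reached a group mean of 6 in any group. In bulk RNA, a change in the share of a cell type and a change of RNA per cell cannot be told apart, and the part of these measurements in the results was not tested.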

How the data were processed

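The members and gene lists were chosen with earlier results of these data known. The authors hybridised biotin-labelled RNA (3′ IVT Express Kit) and deposited 1 table of log2 values, made with RMA (BRB-ArrayTools, version not given in the sources used here). No genome build applies to these values.

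Of 45101 probe sets, 64 controls were left out. Symbols came from the platform annotation, and 34741 were updated by Entrez identifier. Probe sets with several symbols (932) or unnamed (9160) entered no gene. Where a gene had several probe sets, the one brightest on average was used. Group means were fitted with limma 3.58.1 in R 4.3.3 over all 10 arrays (5 residual degrees of freedom), with Benjamini-Hochberg adjustment over 18193 genes. Pathway genes named came from those called with the largest changes, at most 4 a list in each TEM comparison, or from a fixed set. Not all of these genes are named in the text. Of the fixed set of known genes *Prdx6* and *G6pdx* had no probe set of their own. Tested on simulated data for CD4+ TEM against naïve CD4+ cells (18193 genes), the fit recovered 40% of changes of 1 and 92% of changes of 2 on the log2 scale. It recovered 42% and 74% for CD8+ TEM cells, and 10% and 68% for the difference of changes. False calls made up 7.39%, 8.19% and 6.43% of the simulated calls in these 3 comparisons. Far fewer genes were changed in the simulated data than were called in the real data. The adjustment depends on that share, so these rates may not carry over to the real fit. With 2 arrays a group, the number of arrays limits the precision. The alternatives changed the probe set rule, filters, scaling, variance prior, arrays in the fit and replicate block, and left out each array in turn.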

Additional observations from a re-analysis of the deposited data

Results flagged for a closer look

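For 2 of the 9 genes, against 12.5% of all genes, the change from naïve to TEM cells differed between the lineages by a test of the difference itself in limma. Of genes with a group mean of at least 6, 25.1% were called, so the count of 2, or 22.2%, does not stand out. For *Gsr* the CD4+ change was 0.18 and the CD8+ change 1.08, a difference of -0.90 (adjusted p = 0.0274). *Txn1* changed by 1.22 and 1.94, a difference of -0.73 (adjusted p = 0.0346). Both differences kept their sign under every alternative, from -1.05 to -0.75 for *Gsr* and from -0.80 to -0.57 for *Txn1*, and their adjusted p reached 0.0961 and 0.191.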

How the results depend on the processing

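The counts of called genes in CD4+ TEM, CD8+ TEM and CD4+ memory cells against naïve cells (7, 7 and 5 of 9) stayed within 1.5 times under every alternative, and 14 of all 28 calls of these genes over 7 comparisons remained under every alternative. The smaller counts did not. With only the groups compared in the fit, the count fell from 1 to 0 between CD4+ TEM and memory cells, from 4 to 2 between naïve groups and from 2 to 1 between TEM groups. With all probe sets averaged, the naïve groups gave 2. Between TEM groups the count was 1 with marked probe sets left out or with a variance trend, and 0 with the variation filter. For the difference of changes, the variation filter gave 1, *Gclm*, which had not been called. The replicate numbers did not pair the samples (correlations of deviations from -0.04 to 0.03), and the replicate block gave 0 of 9 between TEM groups and 1 for the difference of changes, and ended the *Txnrd1* call in CD4+ TEM cells (adjusted p = 0.0685). At 2-fold without a test, the naïve groups, the TEM groups and the difference each gave 0. Leaving out 1 array gave 0 to 4 between naïve groups, 0 to 2 between TEM groups and 0 to 2 for the difference. Signs reversed for values that were not called, and for *Txnrd1* in CD4+ TEM cells (0.00936 with the variation filter). These were *Gclm* in CD4+ TEM cells (-0.31 with that filter), *Gclm* in memory cells (0.0261 after quantile normalization) and *Txn1* between CD4+ TEM and memory cells (-0.0605 with probe sets averaged). *Txnrd1* between naïve groups was -0.0531 with the variation filter. Leaving out 1 array gave -0.27 to 0.17 for *Gclm* in memory cells, -0.12 to 0.0206 for *Gsr* between CD4+ TEM and memory cells, and -0.31 to 0.49 for *Nfe2l2* and -0.0330 to 0.12 for *Txnrd1* between naïve groups. It gave -0.46 to 0.31 for *Nqo1* between TEM groups and -0.13 to 0.67 for *Nfe2l2* in the difference of changes. The cause was not tested. The variation filter tests fewer genes, 7511. Dim probe sets, with no detection calls at hand, limit *Srxn1*, *Hmox1*, *Nqo1*, *Me1*, *Gstt1* and *Gstm5* in naïve cells.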
